A study of Saccharomyces cerevisiae with 18 samples.

Results

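The nuclear genes of oxidative phosphorylation were described here across 3 haploid budding yeast strains and 2 media. They were taken by gene name from the count table, 42 of 7126 genes, and all 42 were among the 6239 genes tested. They comprised 3 NADH dehydrogenase genes at the point of electron entry, 4 genes of complex II, 9 of complex III, 2 of cytochrome c, 9 of complex IV, 13 of the ATP synthase and 2 ATPase inhibitors. Polyadenylated RNA was sequenced from 18 cultures, 3 replicates of each strain in each medium. The *hcm1-3N* strain carried a plasmid copy of *HCM1*, which encodes a forkhead transcription factor, with phosphorylation sites that target the protein for degradation removed. The *hcm1-8E* strain carried a copy in which the CDK sites of its transactivation domain were replaced by phosphomimetic residues, and the WT strain carried unmutated *HCM1*. In each strain the plasmid was the low-copy pRS316 with *URA3*, the allele was driven by the *HCM1* promoter and it ended in a 3V5 tag. All strains were MATa in the BY4741 background, with deletions of *HIS3*, *URA3*, *LEU2* and *LYS2* and a TEFp-GFP cassette with a hygromycin marker on chromosome VI. The genomic HCM1-3HA was placed under GAL1p, so that it was shut off in 2% dextrose, and carried the markers HIS3MX6 and KanMX. Cultures grew without uracil in dextrose for 40 hours, with a dilution after 24 hours, either with 150 mM LiCl, an ionic stress, or without it (control medium), and were collected in logarithmic growth.

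Oxidative phosphorylation couples the transfer of electrons to oxygen in the inner mitochondrial membrane to the synthesis of ATP. Budding yeast has no proton-pumping complex I. Single-protein NADH dehydrogenases and succinate dehydrogenase (complex II) pass electrons to ubiquinone, the cytochrome bc1 complex (complex III) passes them on to cytochrome c, cytochrome c oxidase (complex IV) reduces oxygen, and the proton gradient that results drives the ATP synthase. Most subunits are encoded in the nucleus and a few in the mitochondrial genome. In yeast many of the nuclear genes are repressed by glucose and are activated by the Hap2, Hap3, Hap4 and Hap5 complex, which binds CCAAT, and by the heme-dependent activator Hap1.

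The promoters of the members were rich in the CCAAT box. In the 300 bases upstream of the start codon, searched on both strands in the RefSeq R64 genome, CCAAT was present in 35 of 42 members (83.3%) and in 41.8% of 6007 such windows over the genome. The longer form ACCAATNA, in which CCAAT is contained, was present in 16 members (38.1%) and in 5.21% of all windows. AGGGG, the core that stress and post-diauxic factors bind, was present in 19 members (45.2%) and in 22.2% of all windows. TAAACAA, a forkhead-type core, was present in 5 members (11.9%) and in 13.2% of all windows. CCAAT was not found in the windows of *NDE2*, *COR1*, *CYT1*, *CYC1*, *CYC7*, *COX4* and *STF1*. The stretches below are from members with values given in every library further on, or, for *QCR7*, from the same complex as *QCR2*, and capitals mark the match, written 5′ to 3′ along the gene's own strand. They lie at chrXIII:30008-30055, minus strand for *NDI1*, chrXVI:919176-919220, plus strand for *QCR2*, chrIV:1496703-1496750, minus strand for *QCR7*, chrIV:334519-334563, minus strand for *COX9*, chrII:315359-315406, plus strand for *ATP3* and chrIV:1058953-1058997, minus strand for *ATP5*.
NDI1: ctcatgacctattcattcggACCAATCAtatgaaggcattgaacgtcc
QCR2: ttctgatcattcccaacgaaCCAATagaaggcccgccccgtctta
QCR7: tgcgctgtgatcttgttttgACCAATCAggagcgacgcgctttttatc
COX9: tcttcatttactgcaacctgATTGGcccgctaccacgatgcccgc
ATP3: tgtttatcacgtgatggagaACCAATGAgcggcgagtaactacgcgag
ATP5: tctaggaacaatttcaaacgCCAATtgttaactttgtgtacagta
In *COX9* the box lies on the other strand, so its capitals read ATTGG. *NDI1*, *QCR7* and *ATP3* hold the longer form. *QCR2* and *QCR7* belong to the same complex, and both hold a CCAAT box.

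Libraries held 18816441 to 21851012 counts, and 3 counts in a library corresponded to 0.129 to 0.171 CPM (reads per 1000000 of the TMM-normalized library size). The 28 mitochondrially encoded loci together held 0 to 3 counts in a library, and *COX1*, *ATP6* and *ATP8* had 0 counts in all 18. The subunits encoded in the mitochondrion could therefore not be followed in these counts, and the cause of the low counts was not tested. The MATa markers *STE2*, *MFA1*, *MFA2*, *BAR1* and *STE6* were present in all libraries, and *LEU2* and *LYS2* were at 0. In RNA from whole cultures, fewer cells that express a gene and less RNA per cell cannot be told apart. The labels call the 3 cultures of a group replicates without saying how they were grown, so the p-values below measure the spread between these cultures. The sources used here do not say whether strand was used in counting, and none of the 42 coding regions overlapped another annotated gene.

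Oxidative phosphorylation genes were well expressed. In WT in control medium the median over the 42 members was 203 TPM (the authors' counts per gene length, scaled to 1000000 per library), against 22.3 TPM over the 6754 genes listed. *COX9*, a small subunit of complex IV, had the highest mean, 545 ± 62.4 TPM (SD, n = 3), followed by *ATP15*, the epsilon subunit of the ATP synthase rotor stalk, at 452 ± 48.6 TPM, and *ATP2*, its catalytic beta subunit, at 399 ± 47.7 TPM. Of the members above the lowest, *SDH1*, the flavoprotein of complex II, had the lowest mean, 104 ± 29.8 TPM. The lowest of all was *NDE2*, the second external NADH dehydrogenase, at 3.54 ± 1.29 TPM, while *NDE1*, which has the same activity, had 216 ± 0.573 TPM. The highest mean was 154-fold the lowest. When the members were ordered by mean, 40 of 41 neighbours overlapped in their replicate values, and only *SDH1* and *NDE2* were apart. The 13 ATP synthase members together had 3414 ± 447 TPM, the 9 of complex IV 2169 ± 433 TPM, and the 9 of complex III 1918 ± 475 TPM (SD, n = 3).

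The cultures numbered 1 stood apart for these genes in every strain and medium. Replicate 1 was the lowest of its group for 39 members in *hcm1-3N*, 41 in *hcm1-8E* and 38 in WT in LiCl, and for 41, 36 and 41 members of the same strains in control medium, against 39.6% to 42.6% of all genes. It was the lowest in all 6 groups for 35 members (83.3%), against 17.1% of all genes. The median log2 difference of replicate 1 from the mean of replicates 2 and 3 over the 42 members was -0.40 in *hcm1-3N*, -0.70 in *hcm1-8E* and -0.42 in WT in LiCl, and -0.49, -0.19 and -0.58 in control medium, while the median over all genes was at most 0.026 in size. The gap was wider for some complexes than for others. In WT in LiCl the median was -1.23 for complex II, -1.28 for the ATPase inhibitors and -0.14 for the ATP synthase. *CYC1*, the main cytochrome c gene, was the 1 member for which replicate 1 was the lowest in none of the 6 groups. With this shared offset the median standard error of a log2 fold change over the members was 0.22, against 0.16 over all genes, and with the replicate number as a block in the model (the blocked test) it was 0.12 for both. Same-numbered cultures deviated together over all genes, as did differently numbered cultures of replicates 2 and 3. For the members the blocked adjusted p is given where the call differs from the unblocked one, in places without the unblocked adjusted p. Log2 fold changes and SE of single members come from the fit without the block, also where the p beside them is blocked. For the regulators, assembly genes and carriers further on, single calls are unblocked unless the block is named.

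**Figure D1:**
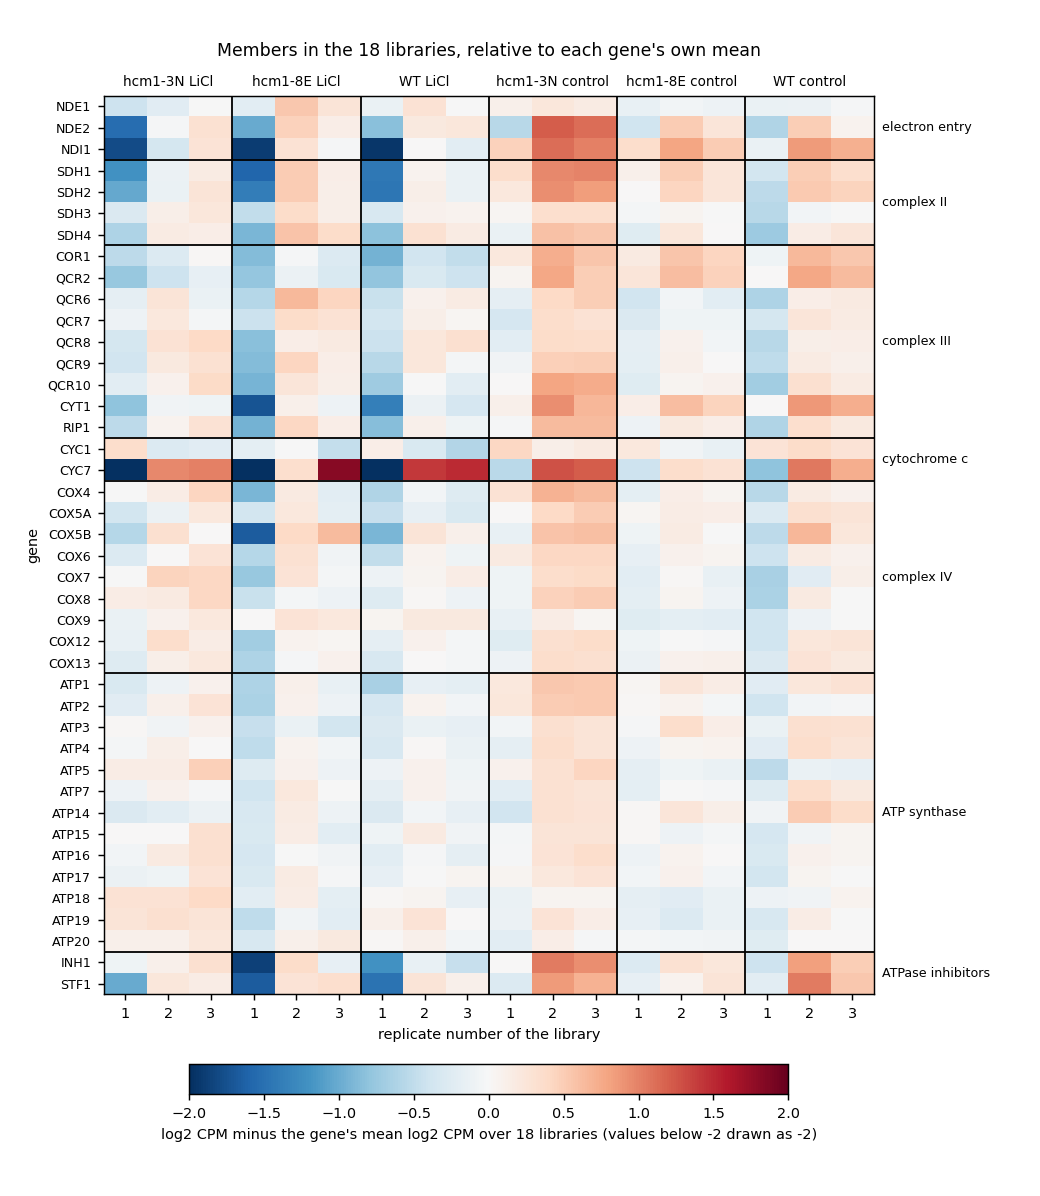
Log2 CPM of each of the 42 genes minus its mean over the 18 libraries, one line per gene grouped by complex and one column per library, LiCl libraries to the left of control libraries. The columns of replicate 1 are the palest or bluest of their group for most genes, and *CYC7* has the widest range.

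Growth in LiCl was set against control medium within each strain to ask whether the respiratory chain genes changed together under chronic ionic stress. *COR1* and *QCR2*, the core proteins of complex III, were lower in LiCl in every strain, for *COR1* in *hcm1-3N* only with the replicate number as a block, and of complex IV and the ATP synthase only *COX9* and *ATP3* were called by the unblocked test, both in *hcm1-8E*. By the quasi-likelihood test of edgeR, with p-values adjusted over all genes after Benjamini and Hochberg and called under 0.05, 1 member was called in *hcm1-3N* (background 10.3% of all genes), 4 in *hcm1-8E* (29.5%) and 2 in WT (30.4%). With the replicate block the counts were 16 of 42 in *hcm1-3N* (38.1%), 9 in *hcm1-8E* (48.1%) and 14 in WT (49.0%), so that the share of members called lay at or below that of all genes in each strain. Without the 6 libraries numbered 1 the counts were 20 of 42 (31.2% of all genes), 11 (47.3%) and 17 (47.9%). There the share of members lay above that of all genes in *hcm1-3N* and below it in *hcm1-8E* and WT. The CPM of LiCl and control did not overlap for 8 members in *hcm1-3N* (31.3% of all genes), 6 in *hcm1-8E* (44.5%) and 6 in WT (45.3%). The mating-type markers differed between the media as well, in *hcm1-3N* and WT without overlap. The summed TPM of the 5 MATa markers was 10624 to 11595 in LiCl and 8269.7 to 8895 in control medium in *hcm1-3N*, 7756 to 9165 and 7394 to 7826 in *hcm1-8E*, and 9248 to 10737 and 6683 to 7810.4 in WT. That of the 4 MATalpha markers was 57.0 to 69.6 in LiCl and 34.9 to 43.1 in control medium in *hcm1-3N*, 26.8 to 28.4 and 25.7 to 28.2 in *hcm1-8E*, and 31.3 to 32.5 and 22.7 to 26.9 in WT, and the part of either in the values of the members was not tested.

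With the block, 15 of 42 members (35.7%) were called lower in LiCl in *hcm1-3N*, against 18% of all genes, 6 (14.3%) in *hcm1-8E*, against 21.7%, and 13 (31.0%) in WT, against 23.0%. Called higher were 1 member (2.38%) in *hcm1-3N*, 3 (7.14%) in *hcm1-8E* and 1 (2.38%) in WT. Of all genes 38.1%, 48.1% and 49.0% were called in either direction, the shares called lower included. Over all 42 members the median log2 fold change was -0.29, -0.11 and -0.11 in the 3 strains, against 0.01, 0.03 and 0.02 over all genes. Members called lower with the block in all 3 strains were *NDI1*, *COR1*, *QCR2*, *CYT1* and *ATP1*, those in 2 strains were *SDH2*, *COX5A* and *ATP3*, and 13 more were called lower in 1 strain. *COX9* was the only member called higher with the block in 2 strains, and *NDE1*, *QCR6* and *ATP18* were higher in 1. The share of all genes called in 2 or 3 strains together is not given here, so these shared calls are not set against a background. The strains were not shown to differ in this by those counts, and the tests of the differences between strains are given further on. The mean difference in log2 CPM between LiCl and control was -0.45 in *hcm1-3N*, -0.28 in *hcm1-8E* and -0.39 in WT for complex III, and -0.09, -0.12 and -0.07 for the ATP synthase. On the log2 TPM scale the *hcm1-8E* values were -0.17 for complex III and -0.012 for the ATP synthase. Over pairs of same-numbered cultures, the complex III difference in *hcm1-8E* ranged between -0.79 and 0.01, and that in WT between -0.43 and -0.34.

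**Figure D2:**
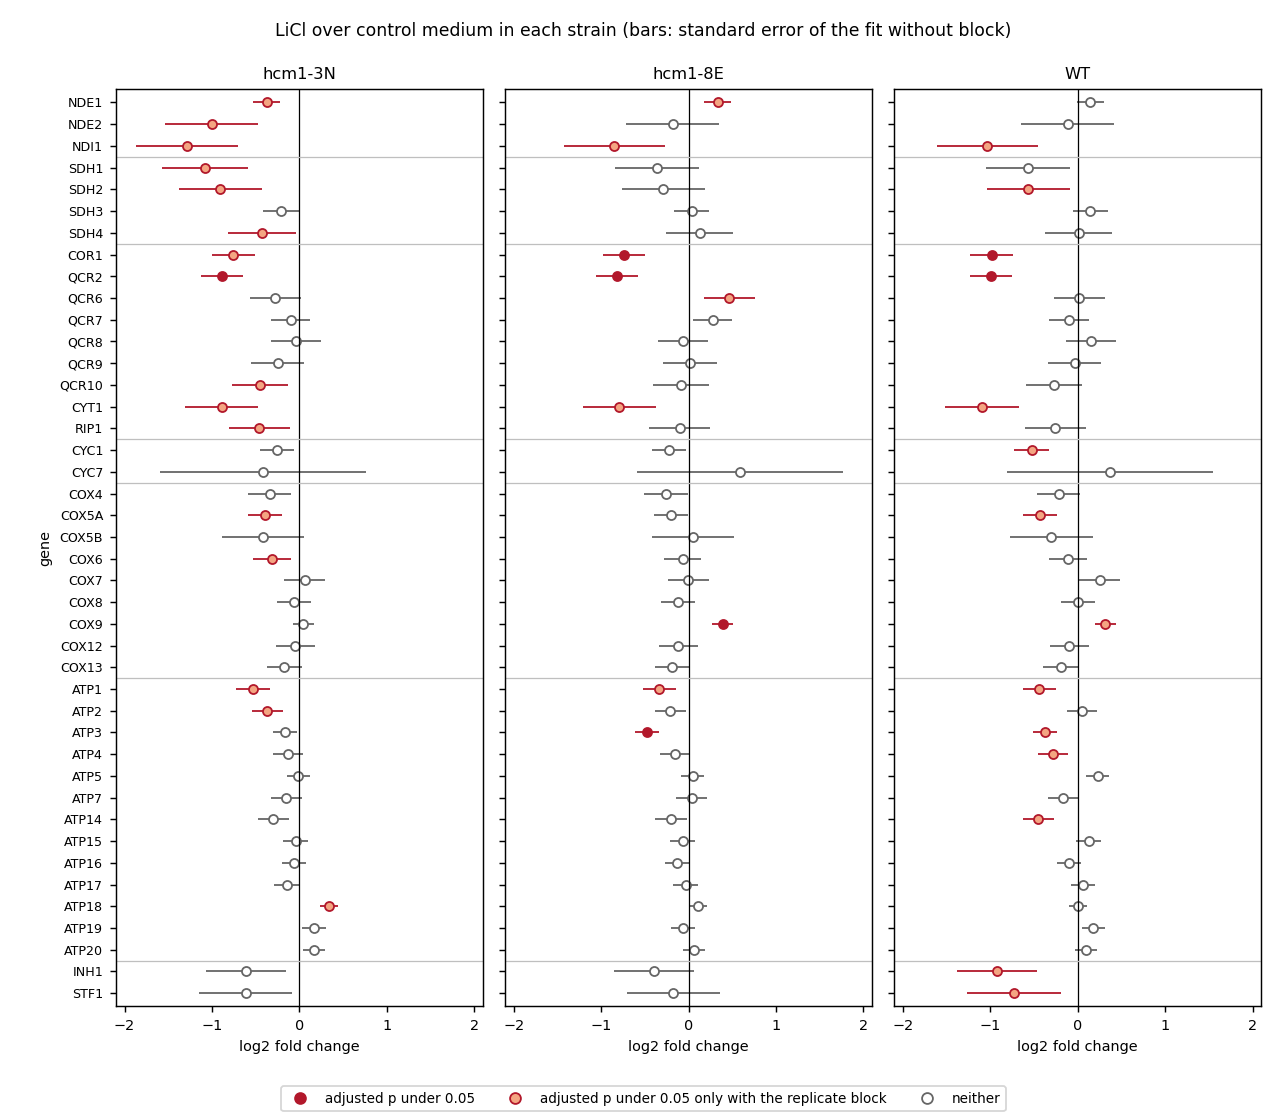
Log2 fold change of LiCl over control ± SE for the 42 genes, 1 panel per strain (3 libraries per group), with filled points called at an adjusted p under 0.05, light points called only with the replicate block and white points called by neither. *COR1* and *QCR2* lie between -0.996 and -0.74 in all 3 panels, and the ATP synthase genes lie nearer to 0.

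In complex III the core protein gene *COR1* was called lower in LiCl in *hcm1-8E* and WT, and in *hcm1-3N* with the block. *COR1* in *hcm1-3N* had 133, 158 and 194 CPM in LiCl and 221, 316 and 281 CPM in control medium. In *hcm1-8E*, *COR1* had 104, 187 and 157 CPM in LiCl and 215, 279 and 257 CPM in control medium. In WT, *COR1* had 99.1, 146 and 136 CPM in LiCl and 179, 297 and 278 CPM in control medium. Each of the LiCl cultures of a strain lay below each of its control cultures. For *COR1*, the log2 fold change was -0.75 ± 0.24 in *hcm1-3N* (adjusted p = 0.0571, 0.000103 with the block), -0.74 ± 0.24 in *hcm1-8E* (adjusted p = 0.0322) and -0.99 ± 0.24 in WT (adjusted p = 0.00733).

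*QCR2*, the other core protein, showed the same pattern. *QCR2* in *hcm1-3N* had 96.3, 122 and 145 CPM in LiCl and 168, 277 and 228 CPM in control medium. In *hcm1-8E*, *QCR2* had 95.3, 149 and 131 CPM in LiCl and 192, 248 and 222 CPM in control medium. In WT, *QCR2* had 93.5, 131 and 122 CPM in LiCl and 163, 276 and 251 CPM in control medium. No LiCl culture of a strain reached the lowest control culture of that strain. For *QCR2*, the log2 fold change was -0.89 ± 0.24 in *hcm1-3N* (adjusted p = 0.0318), -0.82 ± 0.24 in *hcm1-8E* (adjusted p = 0.0194) and -0.996 ± 0.24 in WT (adjusted p = 0.0066). In WT both calls held in each of 6 fits that left out 1 library, with adjusted p up to 0.0304 for *COR1* and 0.0284 for *QCR2*. In *hcm1-3N* the *QCR2* call was lost without *hcm1-3N* control replicate 2, *hcm1-3N* control replicate 3, *hcm1-3N* LiCl replicate 1 or *hcm1-3N* LiCl replicate 2 (adjusted p up to 0.132). In *hcm1-8E* the *COR1* call was lost without *hcm1-8E* control replicate 2, *hcm1-8E* control replicate 3, *hcm1-8E* LiCl replicate 1 or *hcm1-8E* LiCl replicate 3 (up to 0.11), and the *QCR2* call without *hcm1-8E* control replicate 2, *hcm1-8E* control replicate 3 or *hcm1-8E* LiCl replicate 1 (up to 0.0765), while the fold changes over these fits stayed between -0.94 and -0.56 for *COR1* and between -0.96 and -0.68 for *QCR2*.

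*CYT1*, which encodes cytochrome c1, was the third member with separate groups in each strain. The share of all genes with separate groups in every strain is not given here. *CYT1* in *hcm1-3N* had 47.0, 78.6 and 77.9 CPM in LiCl and 88.7, 157 and 131 CPM in control medium. In *hcm1-8E*, *CYT1* had 25.0, 88.8 and 76.7 CPM in LiCl and 90.6, 127 and 112 CPM in control medium. In WT, *CYT1* had 32.1, 75.9 and 65.7 CPM in LiCl and 82.7, 150.3 and 137 CPM in control medium. The LiCl cultures were all below the control cultures of their strain, with a wide spread inside each group. For *CYT1*, the log2 fold change was -0.89 ± 0.42 in *hcm1-3N* (adjusted p = 0.166, 0.00244 with the block), -0.79 ± 0.42 in *hcm1-8E* (adjusted p = 0.172, 0.00117 with the block) and -1.09 ± 0.42 in WT (adjusted p = 0.0637, 0.000262 with the block). Without *hcm1-8E* LiCl replicate 1 the *CYT1* value in *hcm1-8E* was -0.43. *RIP1*, the Rieske iron-sulfur protein, had -0.46 ± 0.35 in *hcm1-3N* (adjusted p = 0.38, 0.0206 with the block), -0.10 ± 0.35 in *hcm1-8E* (adjusted p = 0.848) and -0.25 ± 0.35 in WT (adjusted p = 0.608). Of the 5 small subunits *QCR6*, *QCR7*, *QCR8*, *QCR9* and *QCR10*, none was called without the block. With it, *QCR10* was lower in *hcm1-3N* (-0.45, adjusted p = 0.0281) and *QCR6*, an acidic subunit, was higher in *hcm1-8E* (0.47, adjusted p = 0.0415), and the log2 fold changes of the 5 over the 3 strains ran between -0.45 and 0.47. Leaving out LiCl replicate 1 gave -0.27 for *RIP1* in *hcm1-3N* and 0.73 for *QCR6* in *hcm1-8E*, and leaving out LiCl replicate 2 gave 0.22 for *QCR6*.

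**Figure D3:**
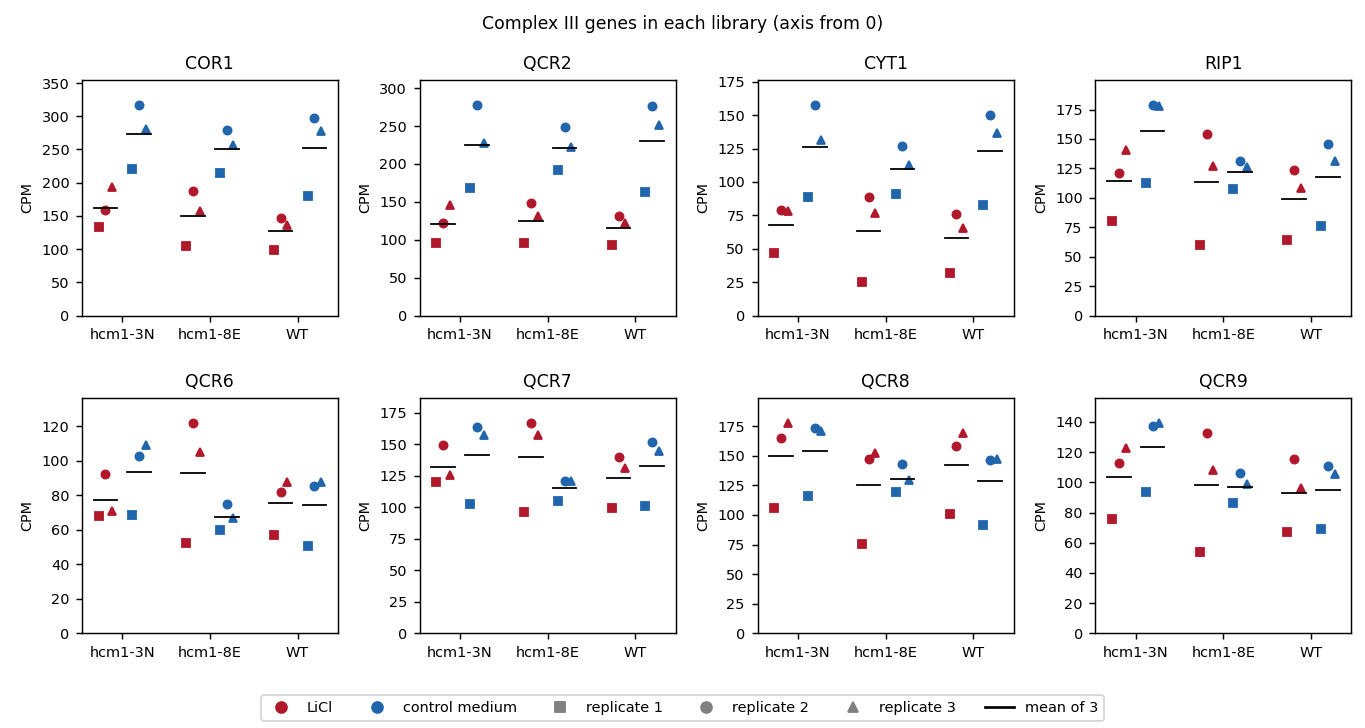
CPM of 8 complex III genes in each library, 1 panel per gene, with red LiCl points to the left of blue control points in each strain, squares, circles and triangles for replicates 1, 2 and 3, and a line at the mean. LiCl and control points do not overlap for *COR1*, *QCR2* and *CYT1* in any strain, and overlap for *RIP1*, *QCR6*, *QCR7*, *QCR8* and *QCR9* in each strain.

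The balance inside complex III was also described within each library, where library scaling and a shift common to all its genes cancel. The summed TPM of *COR1* and *QCR2* was divided by the summed TPM of *QCR6*, *QCR7*, *QCR8*, *QCR9* and *QCR10*, a ratio chosen after the values were seen and given without a test. It was 0.129, 0.113 and 0.133 in LiCl and 0.203, 0.202 and 0.174 in control medium in *hcm1-3N*. In *hcm1-8E* the ratio was 0.157, 0.124 and 0.117 in LiCl and 0.225, 0.241 and 0.231 in control medium. The WT values were 0.128, 0.117 and 0.114 in LiCl and 0.232, 0.238 and 0.227 in control medium. All 9 LiCl libraries, replicate 1 included, lay between 0.113 and 0.157, below the 9 control libraries, which lay between 0.174 and 0.241. *COR1* and *QCR2* have longer coding sequences than the small subunits. Over genes of 78 to 651 bases the median LiCl log2 fold change was 0.03, 0.04 and 0.03 in *hcm1-3N*, *hcm1-8E* and WT. Over genes of 1025 to 1467 bases it was -0.02, -0.02 and -0.05. The part of length in the ratio was not tested.

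Among the NADH dehydrogenases, *NDI1* was lower in LiCl in every strain once the replicate block was in the model. Ndi1 faces the matrix, and Nde1 and Nde2 face the intermembrane space and oxidise cytosolic NADH. *NDI1* in *hcm1-3N* had 46.4, 126 and 194 CPM in LiCl and 221, 351 and 323 CPM in control medium. In *hcm1-8E*, *NDI1* had 43.0, 196 and 158 CPM in LiCl and 206, 279 and 229 CPM in control medium. In WT, *NDI1* had 41.7, 162 and 139 CPM in LiCl and 146, 289.7 and 265 CPM in control medium. Replicate 1 had the lowest value in each group, and LiCl and control overlapped in WT only. For *NDI1*, the log2 fold change was -1.29 ± 0.58 in *hcm1-3N* (adjusted p = 0.15, 0.00916 with the block), -0.85 ± 0.58 in *hcm1-8E* (adjusted p = 0.29, 0.0259 with the block) and -1.03 ± 0.58 in WT (adjusted p = 0.195, 0.0196 with the block). The unblocked test called none of these, and without LiCl replicate 1 of the strain *NDI1* had -0.45 in *hcm1-8E* and -0.67 in WT.

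*NDE1* in *hcm1-3N* had 362, 410.2 and 478 CPM in LiCl and 519, 559.7 and 541 CPM in control medium. In *hcm1-8E*, *NDE1* had 415, 702 and 573 CPM in LiCl and 433, 461 and 449 CPM in control medium. In WT, *NDE1* had 438, 587 and 477 CPM in LiCl and 439.7, 445 and 472 CPM in control medium. The *hcm1-3N* groups did not overlap, with LiCl below control, while the other strains overlapped. For *NDE1*, the log2 fold change was -0.37 ± 0.16 in *hcm1-3N* (adjusted p = 0.124, 0.023 with the block), 0.33 ± 0.16 in *hcm1-8E* (adjusted p = 0.126, 0.0456 with the block) and 0.15 ± 0.16 in WT (adjusted p = 0.506). With the block *NDE1* thus fell in *hcm1-3N* and rose in *hcm1-8E*, where it had 0.14 without LiCl replicate 2. In the fits of all 18 libraries the test of that difference between the strains did not pass the threshold (given further on).

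*NDE2* in *hcm1-3N* had 2.41, 6.85 and 8.56 CPM in LiCl and 4.70, 16.0 and 15.0 CPM in control medium. In *hcm1-8E*, *NDE2* had 3.45, 9.51 and 7.56 CPM in LiCl and 5.24, 9.87 and 8.19 CPM in control medium. In WT, *NDE2* had 3.89, 7.96 and 8.12 CPM in LiCl and 4.56, 9.76 and 7.32 CPM in control medium. In each group replicate 1 was the lowest, and LiCl and control overlapped in each strain. For *NDE2*, the log2 fold change was -1.004 ± 0.53 in *hcm1-3N* (adjusted p = 0.212, 0.00108 with the block), -0.18 ± 0.53 in *hcm1-8E* (adjusted p = 0.817) and -0.12 ± 0.53 in WT (adjusted p = 0.89). *NDE2* was called lower in *hcm1-3N* with the block, and had -0.64 there without LiCl replicate 1.

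Complex II, which oxidises succinate in the citric acid cycle, had no member called without the block. Its flavoprotein gene *SDH1* had -1.08 ± 0.49 in *hcm1-3N* (adjusted p = 0.148, 0.00646 with the block), -0.36 ± 0.48 in *hcm1-8E* (adjusted p = 0.598) and -0.57 ± 0.48 in WT (adjusted p = 0.399). *SDH2*, the iron-sulfur subunit, had -0.90 ± 0.48 in *hcm1-3N* (adjusted p = 0.211, 0.00725 with the block), -0.29 ± 0.47 in *hcm1-8E* (adjusted p = 0.67) and -0.57 ± 0.48 in WT (adjusted p = 0.39, 0.0437 with the block). The membrane anchors had smaller values, with *SDH3* between -0.21 and 0.15 and *SDH4* between -0.43 and 0.13 over the strains, and *SDH4* was called lower in *hcm1-3N* with the block (adjusted p = 0.0283). Without LiCl replicate 1, *SDH4* had -0.23 in *hcm1-3N* and *SDH2* had -0.26 in WT, and *SDH2* in WT had -0.86 without WT control replicate 1 and -0.86 without WT LiCl replicate 2.

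Cytochrome c, the carrier between complexes III and IV, is encoded by *CYC1* (iso-1, the main aerobic form) and *CYC7* (iso-2). *CYC1* in *hcm1-3N* had 58.7, 38.0 and 39.1 CPM in LiCl and 61.1, 49.7 and 51.7 CPM in control medium. In *hcm1-8E*, *CYC1* had 40.1, 45.4 and 32.8 CPM in LiCl and 53.0, 43.5 and 41.4 CPM in control medium. In WT, *CYC1* had 50.3, 37.0 and 30.5 CPM in LiCl and 55.2, 59.4 and 55.2 CPM in control medium. The WT groups did not overlap, and in the mutant strains they did. For *CYC1*, the log2 fold change was -0.26 ± 0.20 in *hcm1-3N* (adjusted p = 0.377), -0.22 ± 0.20 in *hcm1-8E* (adjusted p = 0.423) and -0.53 ± 0.20 in WT (adjusted p = 0.0544, 0.00314 with the block).

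*CYC7* varied more between replicates than any other member. *CYC7* in *hcm1-3N* had 4.86, 91.2 and 94.5 CPM in LiCl and 32.2, 114 and 109 CPM in control medium. In *hcm1-8E*, *CYC7* had 3.85, 59.4 and 166 CPM in LiCl and 35.1, 60.0 and 57.5 CPM in control medium. In WT, *CYC7* had 4.75, 125 and 132 CPM in LiCl and 26.8, 97.8 and 77.5 CPM in control medium. In LiCl, replicate 1 had a small fraction of the *CYC7* level of replicates 2 and 3 in every strain, it was also the lowest in control medium, and LiCl and control overlapped in each strain. For *CYC7*, the log2 fold change was -0.42 ± 1.18 in *hcm1-3N* (adjusted p = 0.829), 0.59 ± 1.18 in *hcm1-8E* (adjusted p = 0.731) and 0.37 ± 1.18 in WT (adjusted p = 0.838). A *CYC7* difference of this size was not detectable with such a spread.

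In complex IV, *COX9*, a small subunit needed for assembly of the oxidase, was the 1 member called without the block. *COX9* in *hcm1-3N* had 124, 145 and 159 CPM in LiCl and 123, 152 and 139.7 CPM in control medium. In *hcm1-8E*, *COX9* had 138, 166 and 157 CPM in LiCl and 115, 119 and 118 CPM in control medium. In WT, *COX9* had 142, 156 and 157 CPM in LiCl and 103, 128 and 135 CPM in control medium. LiCl lay above control in *hcm1-8E* and WT without overlap, and the *hcm1-3N* groups overlapped. For *COX9*, the log2 fold change was 0.04 ± 0.12 in *hcm1-3N* (adjusted p = 0.819), 0.39 ± 0.12 in *hcm1-8E* (adjusted p = 0.0247) and 0.31 ± 0.12 in WT (adjusted p = 0.0586, 0.0039 with the block). The *hcm1-8E* call was lost when 1 of 5 libraries was left out, namely *hcm1-8E* control replicate 1, *hcm1-8E* control replicate 2, *hcm1-8E* control replicate 3, *hcm1-8E* LiCl replicate 2 or *hcm1-8E* LiCl replicate 3 (adjusted p up to 0.0825). In WT, *COX9* had 0.18 without WT control replicate 1. *COX4*, a subunit essential for the assembled enzyme, had -0.34 ± 0.25, -0.25 ± 0.25 and -0.22 ± 0.25 in *hcm1-3N*, *hcm1-8E* and WT, none called. *COX6* was lower with the block in *hcm1-3N* (-0.32, adjusted p = 0.0332), with -0.21 without LiCl replicate 1. The other small subunits *COX7*, *COX8*, *COX12* and *COX13* were called in no strain, with log2 fold changes between -0.20 and 0.25.

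*COX5A* and *COX5B* encode alternative forms of subunit V, of which *COX5B* is known as the form used when oxygen is low. *COX5A* in *hcm1-3N* had 92.0, 109 and 137 CPM in LiCl and 120.1, 157 and 169 CPM in control medium. In *hcm1-8E*, *COX5A* had 91.9, 139 and 105 CPM in LiCl and 123, 133 and 131 CPM in control medium. In WT, *COX5A* had 86.6, 107 and 96.3 CPM in LiCl and 98.7, 149 and 143 CPM in control medium. LiCl and control overlapped in each strain. For *COX5A*, the log2 fold change was -0.40 ± 0.19 in *hcm1-3N* (adjusted p = 0.174, 0.0164 with the block), -0.20 ± 0.19 in *hcm1-8E* (adjusted p = 0.45) and -0.43 ± 0.19 in WT (adjusted p = 0.103, 0.00895 with the block). *COX5B* in *hcm1-3N* had 47.0, 86.3 and 69.5 CPM in LiCl and 62.7, 103 and 105 CPM in control medium. In *hcm1-8E*, *COX5B* had 21.9, 91.0 and 107 CPM in LiCl and 65.4, 77.6 and 69.0 CPM in control medium. In WT, *COX5B* had 36.7, 83.2 and 74.5 CPM in LiCl and 48.5, 109.6 and 81.3 CPM in control medium. Replicate 1 was the lowest in each group, and LiCl and control overlapped in each strain. For *COX5B*, the log2 fold change was -0.42 ± 0.47 in *hcm1-3N* (adjusted p = 0.565), 0.05 ± 0.47 in *hcm1-8E* (adjusted p = 0.94) and -0.30 ± 0.47 in WT (adjusted p = 0.657).

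In the ATP synthase, *ATP3*, the gamma subunit of the central stalk, fell in LiCl in *hcm1-8E*. *ATP3* in *hcm1-3N* had 206, 193 and 216 CPM in LiCl and 195, 251 and 241 CPM in control medium. In *hcm1-8E*, *ATP3* had 147, 184 and 158 CPM in LiCl and 199.7, 258 and 221 CPM in control medium. In WT, *ATP3* had 166, 184 and 181 CPM in LiCl and 184, 253 and 251 CPM in control medium. LiCl and control did not overlap in *hcm1-8E* and overlapped in *hcm1-3N* and WT. For *ATP3*, the log2 fold change was -0.16 ± 0.14 in *hcm1-3N* (adjusted p = 0.444), -0.47 ± 0.14 in *hcm1-8E* (adjusted p = 0.0195) and -0.37 ± 0.14 in WT (adjusted p = 0.0544, 0.006 with the block). The *hcm1-8E* call was lost without *hcm1-8E* control replicate 2, *hcm1-8E* LiCl replicate 1 or *hcm1-8E* LiCl replicate 3 (adjusted p up to 0.1). *ATP1*, the alpha subunit of the catalytic head, was called lower with the block in all 3 strains, and in no strain without it. Its unblocked log2 fold change was -0.53 ± 0.19 in *hcm1-3N* (blocked adjusted p = 0.000879), -0.33 ± 0.19 in *hcm1-8E* (blocked 0.00751) and -0.44 ± 0.19 in WT (blocked 0.00198). In *hcm1-8E*, *ATP1* had -0.18 without LiCl replicate 1 and -0.51 without LiCl replicate 2. Its partner in the head, the beta subunit *ATP2*, was called lower with the block in *hcm1-3N* (-0.36, adjusted p = 0.0132). In the stator, the subunit b gene *ATP4* (-0.28, blocked adjusted p = 0.0255) and the subunit h gene *ATP14* (-0.45, 0.00412) were lower in WT, where *ATP4* had -0.46 without WT control replicate 1. *ATP18*, a small subunit of the membrane part, was higher in *hcm1-3N* with the block (0.33, adjusted p = 0.0137). The remaining members *ATP5*, *ATP7*, *ATP15*, *ATP16*, *ATP17*, *ATP19* and *ATP20* were called in no strain by either test, with log2 fold changes between -0.17 and 0.23.

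*INH1* and *STF1* encode small proteins that bind the ATP synthase and inhibit hydrolysis of ATP by it. *INH1* in *hcm1-3N* had 31.5, 35.5 and 41.4 CPM in LiCl and 33.4, 68.6 and 63.5 CPM in control medium. In *hcm1-8E*, *INH1* had 9.14, 42.9 and 29.8 CPM in LiCl and 27.5, 40.9 and 39.1 CPM in control medium. In WT, *INH1* had 14.4, 30.2 and 24.3 CPM in LiCl and 25.1, 58.9 and 46.7 CPM in control medium. Replicate 1 was below replicates 2 and 3 in each group, and LiCl and control overlapped in each strain. For *INH1*, the log2 fold change was -0.61 ± 0.46 in *hcm1-3N* (adjusted p = 0.374), -0.39 ± 0.46 in *hcm1-8E* (adjusted p = 0.543) and -0.92 ± 0.46 in WT (adjusted p = 0.145, 0.0113 with the block). *STF1* in *hcm1-3N* had 29.2, 68.3 and 65.2 CPM in LiCl and 48.5, 106 and 94.9 CPM in control medium. In *hcm1-8E*, *STF1* had 18.4, 70.7 and 73.8 CPM in LiCl and 52.4, 61.6 and 69.9 CPM in control medium. In WT, *STF1* had 21.0, 70.4 and 63.1 CPM in LiCl and 50.7, 121 and 85.1 CPM in control medium. The groups overlapped in each strain. For *STF1*, the log2 fold change was -0.61 ± 0.54 in *hcm1-3N* (adjusted p = 0.449), -0.17 ± 0.53 in *hcm1-8E* (adjusted p = 0.827) and -0.73 ± 0.54 in WT (adjusted p = 0.322, 0.0211 with the block). Both genes were called lower in WT with the block, and in neither mutant. In the fits of all 18 libraries, with or without the block, neither was called for a difference between strains in the LiCl response. In WT, *STF1* had -0.39 without LiCl replicate 1 and -0.43 without control replicate 2.

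For the genes that come as alternative forms, the ratio of their TPM within a library was compared between LiCl and control by an exact two-sided permutation test (n = 3 in each group, smallest p 0.1), 12 tests in all, none of which can pass 0.05. In *hcm1-3N* the *COX5B* to *COX5A* ratio was 0.517, 0.800 and 0.513 in LiCl and 0.529, 0.664 and 0.630 in control medium. It was 0.242, 0.666 and 1.04 in LiCl and 0.540, 0.593 and 0.536 in control medium in *hcm1-8E*. In WT the *COX5B* to *COX5A* ratio was 0.430, 0.790 and 0.783 in LiCl and 0.498, 0.744 and 0.576 in control medium. The range in LiCl enclosed the range in control medium in each strain. For *COX5B* over *COX5A* the log2 ratio in LiCl minus that in control medium was, with exact permutation p, -0.02 in *hcm1-3N* (p = 0.8), -0.01 in *hcm1-8E* (p = 1) and 0.11 in WT (p = 0.8). In *hcm1-3N* the *CYC7* to *CYC1* ratio was 0.0798, 2.31 and 2.34 in LiCl and 0.508, 2.21 and 2.03 in control medium. It was 0.0926, 1.26 and 4.89 in LiCl and 0.639, 1.33 and 1.34 in control medium in *hcm1-8E*. In WT the *CYC7* to *CYC1* ratio was 0.0912, 3.25 and 4.16 in LiCl and 0.468, 1.59 and 1.35 in control medium. In replicates 2 and 3 the *CYC7* form had the higher level in each group, and in replicate 1 *CYC1* had it. For *CYC7* over *CYC1* the log2 ratio in LiCl minus that in control medium was, with exact permutation p, -0.80 in *hcm1-3N* (p = 1), -0.33 in *hcm1-8E* (p = 0.8) and 0.10 in WT (p = 1).

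In *hcm1-3N* the *NDE2* to *NDE1* ratio was 0.00683, 0.0172 and 0.0184 in LiCl and 0.00932, 0.0293 and 0.0286 in control medium. It was 0.00854, 0.0139 and 0.0136 in LiCl and 0.0124, 0.0220 and 0.0187 in control medium in *hcm1-8E*. In WT the *NDE2* to *NDE1* ratio was 0.00914, 0.0139 and 0.0175 in LiCl and 0.0107, 0.0225 and 0.0159 in control medium. In the mutant strains all 3 same-numbered pairs had a lower *NDE2* to *NDE1* ratio in LiCl, and an exact sign-flip test over 3 pairs cannot go below p = 0.25. For *NDE2* over *NDE1* the log2 ratio in LiCl minus that in control medium was, with exact permutation p, -0.62 in *hcm1-3N* (p = 0.5), -0.56 in *hcm1-8E* (p = 0.3) and -0.26 in WT (p = 0.6). With 1 library left out it ranged over -1.16 to -0.16 in *hcm1-3N* and -0.79 to -0.33 in *hcm1-8E*. In *hcm1-3N* the *STF1* to *INH1* ratio was 0.914, 1.90 and 1.56 in LiCl and 1.44, 1.52 and 1.48 in control medium. It was 1.99, 1.63 and 2.45 in LiCl and 1.88, 1.49 and 1.77 in control medium in *hcm1-8E*. In WT the *STF1* to *INH1* ratio was 1.44, 2.31 and 2.57 in LiCl and 2.00, 2.02 and 1.80 in control medium. *STF1* was above *INH1* in 17 of 18 libraries on the TPM scale. For *STF1* over *INH1* the log2 ratio in LiCl minus that in control medium was, with exact permutation p, -0.09 in *hcm1-3N* (p = 1), 0.23 in *hcm1-8E* (p = 0.4) and 0.08 in WT (p = 0.8).

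**Figure D4:**
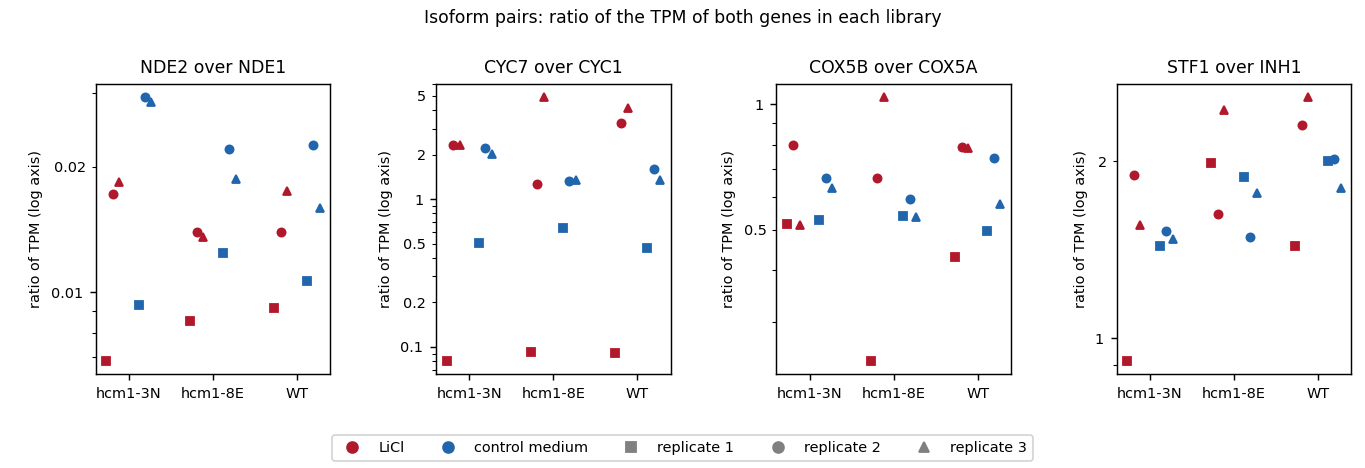
TPM ratio within each library for the alternative forms *NDE2* to *NDE1*, *CYC7* to *CYC1*, *COX5B* to *COX5A* and *STF1* to *INH1*, on a log axis, with red LiCl points to the left of blue control points in each strain and squares, circles and triangles for replicates 1, 2 and 3. The *CYC7* to *CYC1* ratio of replicate 1 is 0.0798 to 0.0926 in LiCl, far below the other replicates.

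The mutants were set against WT in control medium to ask what a change at phosphorylation sites of Hcm1 does in unstressed growth. In *hcm1-3N* most members had a fold change above 0 over WT and over *hcm1-8E*. Few of them passed the unblocked test, and more passed with the block. For *hcm1-8E* over WT the signs were mixed. The log2 fold change of *hcm1-3N* over WT was positive for 37 of 42 members with a median of 0.27, against a median near 0 over all genes. Against *hcm1-8E* it was positive for 41 members with a median of 0.29, and the same *hcm1-3N* cultures entered both comparisons. For *hcm1-8E* over WT it was positive for 20 members, with a median of -0.01. By the unblocked test 1 member was called for *hcm1-3N* against WT, higher in *hcm1-3N* (background 7.68% in either direction and 4.23% higher). For *hcm1-3N* against *hcm1-8E* none was called (background 0.0641%), with 4 at an unadjusted p under 0.05 and 0 by DESeq2, and for *hcm1-8E* against WT none (background 0.0641%), with 0 at an unadjusted p under 0.05 and 0 by DESeq2.

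With the replicate block, 13 members were called for *hcm1-3N* against WT, all higher in *hcm1-3N* (background 22.5% in either direction and 11.1% higher), 3 for *hcm1-3N* against *hcm1-8E*, all higher (3.73% and 1.63%), and 0 for *hcm1-8E* against WT (1.59%). Without the libraries numbered 1 the counts were 11 (17.8% of all genes), 22 (11.2%) and 1 (2.16%). Without WT control replicate 1 the log2 fold changes over WT of 11 of the 13 moved by over 1.5 times, to values between 0.12 and 0.46, and without *hcm1-3N* control replicate 2 those of *NDE2* and *SDH4* were 0.43 and 0.27, while *NDE2* had 1.10 without *hcm1-3N* control replicate 1. Groups did not overlap for 7 members in *hcm1-3N* against WT (35.4% of all genes), 7 in *hcm1-3N* against *hcm1-8E* (26.7%) and 2 in *hcm1-8E* against WT (25.3%). The 13 members were *NDE2* of electron entry, *SDH3* and *SDH4* of complex II, *QCR10* and *RIP1* of complex III, *COX4*, *COX6*, *COX7* and *COX8* of complex IV, and *ATP1*, *ATP2*, *ATP5* and *ATP16* of the ATP synthase, with log2 fold changes between 0.25 and 0.72. Neither *COR1* (0.12 ± 0.24) nor *QCR2* (-0.04 ± 0.24), which were lower in LiCl, was among them.

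*ATP5*, the subunit that joins the stator to the catalytic head, was the member called without the block. In control medium it stood at 211, 246 and 269 CPM in *hcm1-3N* cultures, 177, 189 and 181 CPM in *hcm1-8E* cultures and 139, 183 and 178 CPM in WT cultures. In LiCl, *ATP5* stood at 221, 221 and 279 CPM in *hcm1-3N* cultures, 166, 212 and 186 CPM in *hcm1-8E* cultures and 185, 212 and 189 CPM in WT cultures. Each *hcm1-3N* control culture lay above each control culture of the other strains. The log2 fold change of *ATP5* in control medium was 0.54 ± 0.13 over WT (adjusted p = 0.0224) and 0.41 ± 0.13 over *hcm1-8E* (adjusted p = 0.208, 0.0393 with the block). The call against WT was lost without *hcm1-3N* control replicate 2, *hcm1-3N* control replicate 3 or WT control replicate 1 (adjusted p up to 0.111).

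*COX4* was called higher in *hcm1-3N* with the block in each of the 4 comparisons with another strain. In control medium *COX4* stood at 101, 135 and 129 CPM in *hcm1-3N* cultures, 73.1, 92.0 and 86.5 CPM in *hcm1-8E* cultures and 56.5, 93.4 and 88.3 CPM in WT cultures. In LiCl, *COX4* stood at 83.1, 92.9 and 113 CPM in *hcm1-3N* cultures, 44.5, 94.5 and 71.9 CPM in *hcm1-8E* cultures and 54.9, 80.3 and 69.5 CPM in WT cultures. The *hcm1-3N* values lay above those of both other strains in control medium and overlapped with those of *hcm1-8E* in LiCl. In control medium the log2 fold change was 0.62 ± 0.25 over WT (adjusted p = 0.144, 0.0038 with the block) and 0.54 ± 0.25 over *hcm1-8E* (adjusted p = 0.384, 0.0399 with the block), and in LiCl it was 0.50 ± 0.25 over WT (adjusted p = 0.636, 0.0471 with the block) and 0.45 ± 0.25 over *hcm1-8E* (adjusted p = 0.443, 0.0278 with the block). *ATP2* had 0.57 ± 0.18 over WT in control medium (adjusted p = 0.0581, 0.00226 with the block).

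**Figure D5:**
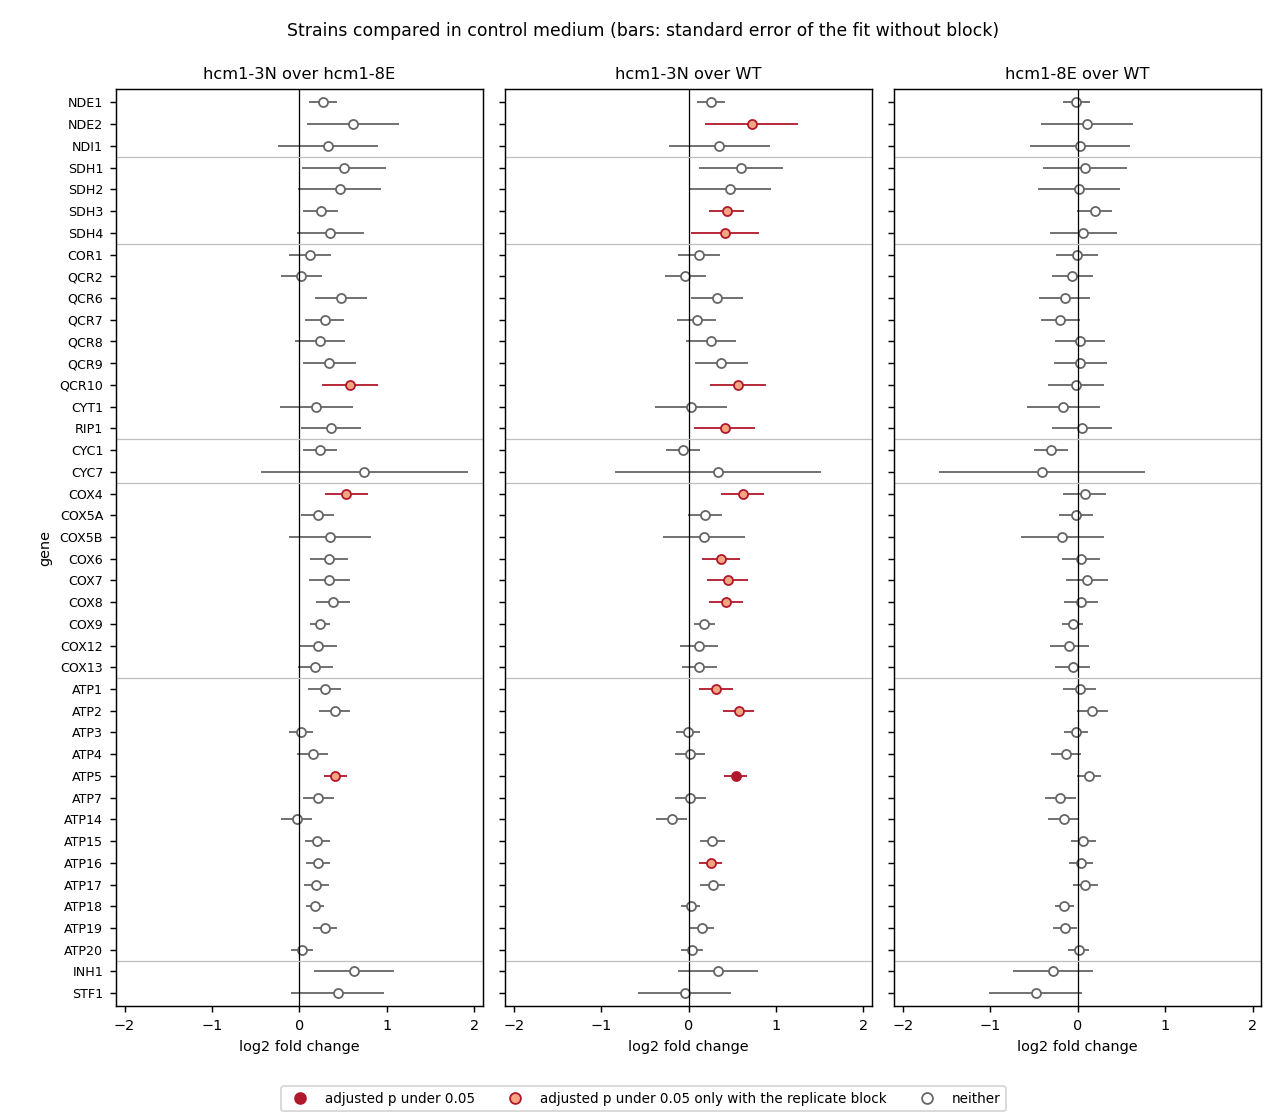
Log2 fold change ± SE of the 42 genes between strains in control medium (3 libraries per group), with panels for *hcm1-3N* over *hcm1-8E*, *hcm1-3N* over WT and *hcm1-8E* over WT, and points marked as in the plot of LiCl fold changes. Nearly all genes lie right of 0 in the 2 panels with *hcm1-3N*, and they scatter around 0 for *hcm1-8E* over WT.

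Other expression differed in *hcm1-3N* as well. The summed TPM of the 5 MATa markers in control medium was 8269.7 to 8895 in *hcm1-3N*, 7394 to 7826 in *hcm1-8E* and 6683 to 7810.4 in WT, and that of the 4 MATalpha markers was 34.9 to 43.1, 25.7 to 28.2 and 22.7 to 26.9 in the same strains. The MATalpha pheromone gene *MF(ALPHA)1* had a log2 fold change of 1.83 ± 0.41 over WT (adjusted p = 0.0149) and the MATalpha agglutinin gene *SAG1* one of 0.64 ± 0.11 (adjusted p = 0.00541), with no MATalpha marker at 0. The part of these markers in the differences of the members was not tested.

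In LiCl the median log2 fold change over the members was 0.15 for *hcm1-3N* over WT, 0.09 for *hcm1-3N* over *hcm1-8E* and 0.06 for *hcm1-8E* over WT. None of the 42 members was called without the block for *hcm1-3N* against WT (background 0.721%), *hcm1-3N* against *hcm1-8E* (3.06%) or *hcm1-8E* against WT (0.0321%), with 3, 6 and 1 at an unadjusted p under 0.05 and 0, 2 and 0 called by DESeq2. With the block, 1 was called for *hcm1-3N* against WT, namely *COX4* (3.05%), 8 for *hcm1-3N* against *hcm1-8E* (8.49%) and 0 for *hcm1-8E* against WT (0.305%). Of the 8 between the mutants, 7 were higher in *hcm1-3N* (background 3.59% higher), and *NDE1* was lower in *hcm1-3N* (-0.43 ± 0.16, blocked adjusted p = 0.0446). Higher in *hcm1-3N* were *COX4*, *COX8* and the ATP synthase genes *ATP3*, *ATP5*, *ATP16*, *ATP18* and *ATP19*, with log2 fold changes between 0.28 and 0.53. For *ATP19*, a small subunit of the membrane part, the value was 0.53 ± 0.14 (adjusted p = 0.0514, 0.00467 with the block), and the *ATP19* groups had 61.5, 64.3 and 61.0 CPM in the *hcm1-3N* cultures, each above the 36.1, 49.1 and 44.1 CPM of the *hcm1-8E* cultures. Without the libraries numbered 1, 0 members were called for *hcm1-3N* against WT (1.88% of all genes), 4 between the mutants (13.9%) and 0 for *hcm1-8E* against WT (2.39%). Between the mutants *NDE1* had -0.25 without *hcm1-8E* LiCl replicate 2, *ATP5* had 0.23 without *hcm1-3N* LiCl replicate 3, and *COX4* had 0.22 and 0.72 without *hcm1-8E* LiCl replicate 1 and 2. Groups did not overlap for 6 members in *hcm1-3N* against WT (11.2%), 5 in *hcm1-3N* against *hcm1-8E* (13.1%) and 1 in *hcm1-8E* against WT (7.37%).

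Whether LiCl acted differently in the strains was tested with the interaction of strain and medium. No member was called for *hcm1-3N* minus WT, for *hcm1-3N* minus *hcm1-8E* or for *hcm1-8E* minus WT, with or without the block (background 0% of all genes in each without it, and 0.641%, 0.192% and 0.337% with it), by DESeq2 none either, and 2, 1 and 0 members were at an unadjusted p under 0.05 in edgeR. *NDE1* had a difference of -0.70 ± 0.22 between the LiCl responses of *hcm1-3N* and *hcm1-8E* (adjusted p = 0.379, 0.0976 with the block). Without the libraries numbered 1, 0 members were called for *hcm1-3N* minus WT (0.337% of all genes), 11 for *hcm1-3N* minus *hcm1-8E* (9.38%) and 5 for *hcm1-8E* minus WT (5.88%). The members called in those fits are not named here. The median interaction over the members was -0.12 for *hcm1-3N* minus WT, -0.17 for *hcm1-3N* minus *hcm1-8E* and 0.11 for *hcm1-8E* minus WT. By complex, the median of *hcm1-3N* minus *hcm1-8E* was -0.70 for electron entry, -0.58 for complex II and 0.02 for the ATP synthase.

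The known regulators of these genes were counted as a list of 14, of which LiCl lowered 3 in *hcm1-3N*, 3 in *hcm1-8E* and 5 in WT and raised 2 in *hcm1-8E* by the unblocked test, beside 5.18%, 12.5% and 13.9% of all genes lower and 17.1% higher in *hcm1-8E*. With the block 7, 5 and 5 were lower and 1, 3 and 1 higher in the same strains. Beside these, 18%, 21.7% and 23.0% of all genes were lower with the block, and 38.1%, 48.1% and 49.0% were called in either direction. *HAP4*, the activating subunit that is limiting for the CCAAT-binding complex, had 129.8, 275 and 317 CPM in LiCl and 338, 306 and 314 CPM in control medium in *hcm1-3N*. In *hcm1-8E*, *HAP4* had 94.5, 107 and 220.3 CPM in LiCl and 324, 317 and 309.7 CPM in control medium, and in WT 118, 243 and 269 CPM in LiCl and 247, 212 and 215 CPM in control medium. The groups were apart in *hcm1-8E* and overlapped in *hcm1-3N* and WT, and replicate 1 was the lowest LiCl culture in each strain. For *HAP4*, the log2 fold change was -0.41 ± 0.35 in *hcm1-3N* (adjusted p = 0.44), -1.17 ± 0.35 in *hcm1-8E* (adjusted p = 0.0239) and -0.09 ± 0.35 in WT (adjusted p = 0.862). The *hcm1-8E* call was lost without *hcm1-8E* control replicate 2, *hcm1-8E* control replicate 3, *hcm1-8E* LiCl replicate 1 or *hcm1-8E* LiCl replicate 2 (adjusted p up to 0.0825).

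Of the DNA-binding subunits of that complex, *HAP2* fell in *hcm1-8E* (-0.59 ± 0.16, adjusted p = 0.0117) and in WT (-0.77 ± 0.16, 0.00232), *HAP3* rose in *hcm1-8E* (0.70 ± 0.19, 0.0149), and *HAP5* had -0.44, -0.02 and -0.21 in *hcm1-3N*, *hcm1-8E* and WT, not called. *HAP1*, the heme-dependent activator, fell in *hcm1-3N* (-0.52 ± 0.12, 0.0163) and WT (-0.62 ± 0.12, 0.00176), and *ROX1*, a repressor of hypoxic genes, fell in *hcm1-8E* (-0.60 ± 0.17, 0.016) and WT (-0.60 ± 0.17, 0.0149). *SNF1*, the kinase that relieves glucose repression, fell in *hcm1-3N* (-0.39 ± 0.11, 0.0394) and WT (-0.52 ± 0.11, 0.00311), and so did *HXK2*, the hexokinase that takes part in that repression (-0.88 ± 0.13, 0.00159, and -0.60 ± 0.13, 0.00329). *SIP4*, an activator of gluconeogenic genes, rose in *hcm1-8E* (0.74 ± 0.22, 0.0208) at levels of 4.93, 7.43 and 5.28 CPM in LiCl and 2.50, 4.15 and 3.88 CPM in control medium. *HXK2* in LiCl was lower in *hcm1-3N* than in *hcm1-8E* (-0.67 ± 0.13, 0.00941). The other members of the list, *MOT3*, *CAT8*, *ADR1*, *MIG1* and *REG1*, were not called in LiCl against control by the unblocked test, with values between -0.97 and 0.40. Leaving out 1 library ended the call of *HAP1* and *SNF1* in *hcm1-3N* (*hcm1-3N* control replicate 2, *hcm1-3N* control replicate 3, *hcm1-3N* LiCl replicate 1 or *hcm1-3N* LiCl replicate 2 for both, adjusted p up to 0.0568 and 0.142), of *HAP3* (*hcm1-8E* control replicate 2 or *hcm1-8E* control replicate 3, 0.0751), of *SIP4* (*hcm1-8E* control replicate 1 or *hcm1-8E* LiCl replicate 2, 0.0939), of *ROX1* in *hcm1-8E* (*hcm1-8E* control replicate 2 or *hcm1-8E* LiCl replicate 3, 0.0704) and in WT (WT control replicate 2, WT control replicate 3 or WT LiCl replicate 2, 0.061) and of *HXK2* between the mutants (*hcm1-3N* LiCl replicate 2 or *hcm1-8E* LiCl replicate 2, 0.0552).

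Many genes that assemble the respiratory complexes and supply their cofactors were lower in LiCl. In 7 lists of assembly, membrane insertion, ubiquinone and heme synthesis genes, 75 genes in all, the unblocked test called 9 lower and 1 higher in *hcm1-3N*, 22 lower and 3 higher in *hcm1-8E*, and 27 lower and 1 higher in WT, beside backgrounds of 5.18%, 12.5% and 13.9% of all genes lower. With the block 28, 34 and 36 were lower and 1, 7 and 3 higher in the same strains. Beside these, 18%, 21.7% and 23.0% of all genes were lower with the block, and 38.1%, 48.1% and 49.0% were called in either direction. A difference from the subunits was not tested. No share of all genes called in all 3 strains is given beside the genes named next. The unblocked calls held in every fit that left out 1 library for 1 of 10 genes in *hcm1-3N*, 12 of 25 in *hcm1-8E* and 19 of 28 in WT. Called lower in all 3 strains without the block were the complex IV assembly genes *COX10* (heme A synthesis), *COX11* (copper delivery), *COX18* (membrane insertion of Cox2) and *MSS51* (translation of Cox1), *CBP3* (assembly of cytochrome b), and *ATP10*, *ATP12* and *ATP22* of ATP synthase assembly, and *COA6*, a copper chaperone of complex IV, was higher in all 3. *MSS51* had -0.86 in *hcm1-3N* (adjusted p = 0.00349), -0.69 in *hcm1-8E* (0.00257) and -0.76 in WT (0.00124). *COX11* had -0.52 (0.0189), -0.97 (0.000132) and -0.57 (0.00398) in the same strains, and *ATP12*, a chaperone of the alpha subunit Atp1, had -0.41 (0.0468), -0.59 (0.00287) and -0.73 (0.000642). In *hcm1-3N* the *COX11* call was lost without *hcm1-3N* control replicate 2, *hcm1-3N* LiCl replicate 1 or *hcm1-3N* LiCl replicate 2 (adjusted p up to 0.0755), and the *ATP12* call without any 1 of 5 libraries, all but LiCl replicate 1 (0.141).

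Other genes of these lists were called lower in both *hcm1-8E* and WT, among them *SCO1* of copper delivery, *BCS1*, which inserts the Rieske protein, the cytochrome heme lyase gene *CYT2*, the prohibitin gene *PHB1*, *HEM12* of heme synthesis, and *COQ1* and *COQ4* of ubiquinone synthesis. *COQ4* had -0.73 in *hcm1-8E* (adjusted p = 0.0431, lost without any 1 of 5 libraries, all but LiCl replicate 3, up to 0.125) and -1.06 in WT (0.00699). Of the 8 other subunits and supercomplex factors and the 4 other electron donors, none was called in LiCl without the block in any strain, and with the block 2, 1 and 2 of the 8 and 3, 2 and 3 of the 4 were lower in *hcm1-3N*, *hcm1-8E* and WT, beside 18%, 21.7% and 23.0% of all genes. Among 7 carriers of ADP, ATP and phosphate, *MIR1*, the phosphate carrier, rose in LiCl in WT (0.26 ± 0.06, adjusted p = 0.00692, 0.0517 without WT control replicate 1). In control medium *MIR1* was higher in *hcm1-3N* than in WT (0.42 ± 0.06, 0.00241), as was *PET9*, the main ADP and ATP carrier (0.44 ± 0.11, 0.0298), and the *PET9* call was lost whichever of the 6 libraries was left out (adjusted p up to 0.124). *COX23* (-0.46, 0.0314) and *TCM62* (-0.40, 0.0179) were lower there, and their calls were lost without 1 of 5 libraries (*hcm1-3N* control replicate 1, *hcm1-3N* control replicate 2, *hcm1-3N* control replicate 3, WT control replicate 2 or WT control replicate 3, adjusted p up to 0.128) and without *hcm1-3N* control replicate 3 or WT control replicate 2 (up to 0.0784).

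Members with and without these motifs were set side by side in LiCl, as a description. The median log2 fold change of the 16 members with ACCAATNA was -0.16 in *hcm1-3N*, -0.08 in *hcm1-8E* and -0.14 in WT, against -0.38, -0.15 and -0.11 for the 26 without it. For AGGGG the medians were -0.42, -0.13 and -0.12 with the motif, against -0.16, -0.07 and -0.11 without it. Of the 5 members lower in LiCl in all 3 strains with the block, *COR1* and *CYT1* have no CCAAT in the window, while *NDI1*, *QCR2* and *ATP1* have it. These are descriptions of letters in a fixed window, and no binding was measured.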

How the data were processed

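Libraries were made from polyadenylated RNA. The authors aligned paired-end reads to R64-1-1 with a version 2.7.7a tool, whose name is not given in the sources used here, and used featureCounts with annotation R64-1-1.90 on exon fragments mapped at a quality above 20. The deposited counts per gene are raw. The deposited TPM are the authors' scaling of these by length to a sum of 1000000.

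All 18 libraries entered 1 model of 6 group means in edgeR 4.0.16 (TMM, filterByExpr by group, robust quasi-likelihood test) in R 4.3.3, with Benjamini-Hochberg adjustment over 6239 genes and a threshold of 0.05. Heat map values are log2 CPM without a prior count. Means over a complex and the differences of replicate 1 use log2 CPM with a prior count of 2. SE is the size of the log2 fold change over the square root of F. DESeq2 1.42.0 served as an alternative, and the code was tested on simulated data. Other alternatives were size factors, no filter, a fit of the compared groups only, leaving out each library, a replicate block and, chosen after seeing the data, replicates 2 and 3 only. Same-numbered cultures were taken as pairs because the deviations from group means correlated in all 27 same-numbered pairs (r = 0.237 to 0.890). The mean for differently numbered libraries was -0.234. It was negative through pairs with replicate 1, while differently numbered pairs of replicates 2 and 3 had r = 0.266 to 0.698. Pairing of replicates 2 and 3 by number was therefore not shown by these correlations. The labels give the numbers, and no source says that same-numbered cultures were grown together.

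Members and lists were chosen with earlier results of these data known. Values in every library are given for alternative forms of a protein, for up to 2 members of a complex with the largest change past the threshold, and for *HAP4*. *CYT1*, *NDI1*, *COX4* and *ATP19* were added after their values were seen. Windows upstream of start codons were read from RefSeq R64 by Python 3.11.15.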

Additional observations from a re-analysis of the deposited data

How the results depend on the processing

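With a replicate block, the numbers of members called for LiCl against control were 16, 9 and 14 in *hcm1-3N*, *hcm1-8E* and WT, against 1, 4 and 2 without it, and with replicates 2 and 3 only they were 20, 11 and 17. In control medium the block gave 13 for *hcm1-3N* against WT and 3 for *hcm1-3N* against *hcm1-8E*, against 1 and 0 without it, and replicates 2 and 3 only gave 11, 22 and, for *hcm1-8E* against WT, 1. In LiCl the block gave 1 for *hcm1-3N* against WT and 8 for *hcm1-3N* against *hcm1-8E*, and replicates 2 and 3 only gave 4 for the second. For the interactions, replicates 2 and 3 only gave 11 for *hcm1-3N* minus *hcm1-8E* and 5 for *hcm1-8E* minus WT. A fit of the compared groups only gave 0, 1 and 2 in LiCl against control and 0 for *hcm1-3N* against WT in control medium. DESeq2 gave 4, 4 and 6 for LiCl against control, 2 for *hcm1-3N* against WT in control medium and 2 between the mutants in LiCl, where size factors gave 1. Without the filter the WT count was 5. Leaving out 1 library at a time gave 0 to 2, 0 to 3 and 2 to 7 for LiCl against control in *hcm1-3N*, *hcm1-8E* and WT, 0 to 1 for *hcm1-3N* against WT in control medium, 0 to 1 between the mutants in LiCl and 0 to 1 for the interaction of the mutants. For DESeq2, size factors, no filter, the compared groups only and the fits without 1 library, no share of all genes is given. Changes in those counts are thus not set against a background. Of 146 recomputed fold changes of single genes none changed sign, and 28 moved by over 1.5 times when 1 library was left out, with the values given beside those genes. The block brought 56 more of them past the threshold and none below it. Those 56 followed from the choice of genes, because the members among the 146 were taken for being called with the block. Replicates 2 and 3 only brought 42 past the threshold and 5 below it, and a fit of the compared groups only brought 38 below it. With 1 library left out, the LiCl minus control difference in the log2 ratio of *COX5B* over *COX5A* ranged over -0.23 to 0.089 in *hcm1-3N*, -0.47 to 0.58 in *hcm1-8E* and -0.042 to 0.40 in WT, that of *CYC7* over *CYC1* over -1.61 to 0.82, -1.61 to 1.25 and -0.88 to 1.88, that of *NDE2* over *NDE1* over -1.16 to -0.16, -0.79 to -0.33 and -0.54 to 0.0041, and that of *STF1* over *INH1* over -0.31 to 0.22, 0.080 to 0.37 and -0.090 to 0.33 in the same strains. On the authors' TPM the mean LiCl difference over the 42 members was -0.10 in *hcm1-8E*, against -0.22 on log2 CPM. The cause of these differences was not tested. The lowest mean level of a member in WT in control medium was that of *NDE2*, 3.54 TPM.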
